A study of Mus musculus with 6 samples.

Results

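Complement is a protein cascade of blood and tissue fluid that marks damaged cells and microbes for removal. C1q, built from the chains encoded by C1qa, C1qb and C1qc, starts the classical pathway on antibody or dying cells, and C4 and C3 are then cleaved and attach to the surface. Factor B (Cfb) and properdin (Cfp) form and stabilise the enzyme of the alternative pathway, which amplifies C3 cleavage, and the fragments C3a and C5a act on leukocytes through the receptors C3ar1 and C5ar1. In many tissues C1q is made mainly by macrophages and properdin by leukocytes, whereas C3 and C4 are also made by stromal cells. The genes described here are these 9, C1qa, C1qb, C1qc, C3, C4b, Cfb, Cfp, C3ar1 and C5ar1, taken by symbol from a table of 45038 genes, and all 9 were found once.

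The 6 libraries came from C57BL/6 mice carrying both Tie2-Cre and the Rosa-LSL-tdTomato reporter, 6 to 8 weeks old at treatment. In the 3 MI libraries, cells came from infarct tissue taken 3 weeks after ligation of the left anterior descending coronary artery, and in the 3 Normal libraries from the left ventricle of hearts labelled as having had no infarct surgery. In both groups tdTomato+ F4/80- cells, titled cardiac endothelial cells by the submitters, were sorted, and their RNA was amplified by T7 transcription before sequencing. The Tie2 promoter is active in endothelium and also in part of the blood lineage, so the gate removes macrophages with surface F4/80 but not other leukocytes of that lineage. Both groups carry the sample numbers Ms1535, Ms1537 and Ms1608. Whether equal numbers mark 1 mouse, or each library a separate mouse, is not stated, so any p-value reflects how these libraries spread, and that spread may be technical.

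Expression was measured as FPKM, fragments scaled to transcript length and to the mapped total. Levels of different genes compare only where fragments cover whole transcripts evenly. That was not examined for this amplified RNA, so ratios and shares between genes describe the deposited FPKM and may not be ratios of transcripts. Low values fell on regular steps, which, read as 1 fragment each, gave implied depths of 33.9 to 47.3 M fragments per library. The steps alone do not fix the depth. Normal Ms1608 stood apart: its correlations with the other libraries over log2(FPKM + 1) of the tested genes were 0.54 to 0.68, against 0.80 to 0.92 among the other 5. Its summed level of 15 endothelial markers was 41.4 FPKM, the lowest of the 6. Normal Ms1535 and Ms1537 had 1347 and 949 FPKM, and the MI libraries 294 to 1166 FPKM. Its summed level of 8 pan-leukocyte markers was 3751 FPKM, the highest of the 6, while the MI libraries had 1965 to 2365 FPKM and the remaining Normal libraries 268 and 400.3 FPKM. Whether this library holds the cells its label names could not be settled from the files, so its Normal values carry that doubt. The comparison of each complement gene tested is therefore given with and without it. Where 3 values of a group follow each other, they are those of Ms1535, Ms1537 and Ms1608.

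With all 6 libraries, C3, C4b, C1qc, C1qa and Cfb were higher in each MI library than in any Normal library, whereas Cfp, C5ar1, C1qb and C3ar1 overlapped between the groups. The widest gap was that of C4b, whose mean was 114 ± 102 FPKM (SD, n = 3) for MI and 6.70 ± 0.919 FPKM (SD, n = 3) for Normal. None of the 9 genes passed the threshold of 0.05 on the adjusted p of limma. Of all 10168 genes tested, 1 passed (0.00983%), the predicted gene Gm24890, which was listed at 0 in every Normal library and is named here because it was the only call. The 8 tested genes had at least 1 FPKM in at least 3 libraries, and none of them met that through the MI libraries alone. C3ar1 did not meet it and is described by its values.

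**Figure D1:**
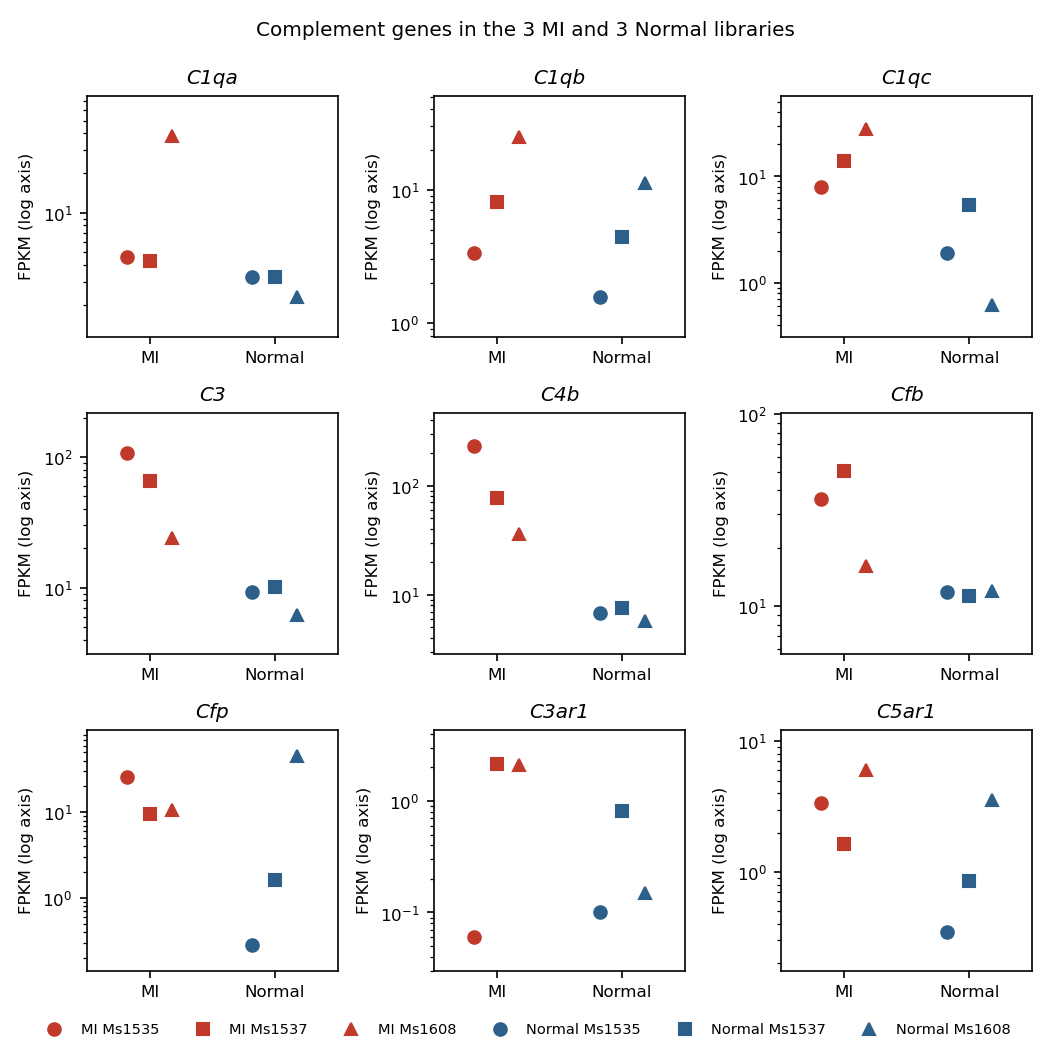
FPKM of the 9 complement genes in each library on log axes, with MI in red and Normal in blue and 1 symbol per sample number. C1qa, C1qc, C3, C4b and Cfb do not overlap between groups, and the Normal Ms1608 triangle is the highest point for Cfp.

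Levels of tested genes were higher in MI in general, with a median log2 difference of 0.78 and 87.2% of tested genes above 0, so the position of all 8 tested complement genes above 0 does not separate them from the rest. Complete separation, with every MI library above every Normal library, was found in 25% of tested genes and in 5 of the 8 complement genes. An unadjusted p under 0.05 with a higher level in MI was found in 16.1% of tested genes and in 3 of the 8, namely C4b, C3 and C1qc. The median log2 difference of the 8 was 1.45, and 0.58 after median-ratio and 0.83 after quantile scaling. After median-ratio scaling, which brings the median of all genes to -0.03, separation was found in 6.77% of tested genes and in 2 of the 8, C3 and C4b. As deposited, 1635 genes had an unadjusted p under 0.05 with a higher level in MI and 21 with a lower level, against 328 and 160 after median-ratio scaling and 291 and 215 after quantile scaling. C3 and C4b had an unadjusted p under 0.05 under both scalings (limma adjusted p of at least 0.891). An exact permutation test of 3 against 3 libraries cannot give a p below 0.1. In bulk libraries, fewer cells of a type and less RNA per cell cannot be told apart.

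C3 encodes the central component on which the complement pathways converge. Its levels were 107.5, 65.4 and 24.1 FPKM (MI) against 9.34, 10.2 and 6.25 FPKM (Normal). All MI libraries lay above all Normal libraries, and the lowest MI value was 2.35 times the highest Normal value. The log2 difference was 2.58 (SE 0.74, limma adjusted p = 0.245, higher in 3 of 3 MI libraries). Without Normal Ms1608 it was 2.39 (SE 0.62, limma adjusted p = 0.0550), which did not pass the threshold. The implied fragments behind these values ranged from 1137 to 25358 per library. If the implied depths hold, counting error was small beside the spread between libraries.

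C4b encodes complement component C4, which the classical and lectin pathways cleave. Its levels were 229, 77.0 and 35.8 FPKM (MI) against 6.85, 7.54 and 5.72 FPKM (Normal). The Normal values spanned 1.32-fold while the MI values spanned 6.40-fold, and the groups did not overlap. The difference on the log2 scale was 3.51 (SE 0.78, limma adjusted p = 0.245), and 3.41 without Normal Ms1608 (SE 0.70, limma adjusted p = 0.0329), where it passed the threshold, as 5.86% of the genes tested there did. C4b has a close copy, C4a, 65209 bases away on chromosome 17, and 16.5% of the 100-base stretches of the C4b transcript examined occur exactly in a C4a transcript, so part of the reads could be assigned to either. C4a was at 4.92, 1.48 and 2.98 FPKM (MI) against 0.119, 0.510 and 12.3 FPKM (Normal). C4b exceeded C4a by 12.03 to 57.4 times in 5 libraries, but in Normal Ms1608 C4b was 0.464 times C4a.

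C3 and C4b shared the order of the MI libraries, highest in Ms1535 and lowest in Ms1608, and within a library their ratio needs no scaling between libraries. C4b was 2.13, 1.18 and 1.49 times C3 in the MI libraries and 0.733, 0.737 and 0.915 times C3 in the Normal libraries. C4b thus stood above C3 in all MI libraries and below it in all Normal libraries.

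Cfb encodes factor B, the protease of the alternative pathway. It had 36.2, 50.4 and 16.2 FPKM (MI) against 11.8, 11.2 and 12.03 FPKM (Normal). The groups did not overlap, but MI Ms1608 was 1.34 times the highest Normal library. On the log2 scale the groups differed by 1.34 (SE 0.68, limma adjusted p = 0.340), and 1.36 without Normal Ms1608 (SE 0.55, limma adjusted p = 0.132). After median-ratio scaling the groups overlapped and the log2 difference was 0.29 (limma adjusted p = 0.939). Among the 9 genes, Cfb varied least between Normal libraries, at 1.07-fold. In Normal Ms1535 and Ms1537 it was the highest of the 9, where C3 was 0.795 and 0.909 times Cfb, whereas in MI C3 was 2.97, 1.30 and 1.49 times Cfb.

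Cfb lies on the minus strand of chromosome 17 at 34856374 to 34862518 (GRCm38), 85 bases from C2, whose product is the matching protease of the classical pathway. C2 was under the level filter, at 16.8, 4.16 and 0.562 FPKM (MI) against 0.0922, 0.186 and 0.267 FPKM (Normal). All MI values of C2 lay above all Normal values, and Cfb exceeded C2 by 2.15 to 28.8 times in MI and by 45.0 to 128 times in Normal. A predicted gene, Gm20547, overlaps Cfb exons on the same strand, and its listed values were practically 0 in every library.

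Fibroblast markers are set beside C3 and C4b, whose highest values were in MI Ms1535. The summed level of the markers was highest in MI Ms1537. Of 13 markers, taken without the filter on low values, 7 were higher in each MI library than in any Normal library. Among tested genes, which met that filter, 25% were, so the shares are not like for like. The summed level of the list was 1312 to 6439 FPKM in MI and 209 to 1156 FPKM in Normal. Fap was the only marker listed at 0, in Normal Ms1608. Dcn, the proteoglycan decorin, had 3035, 2717 and 702 FPKM (MI) against 530.0, 707 and 104 FPKM (Normal). Per 100 FPKM of Dcn, C4b stood at 7.55, 2.83 and 5.10 in MI and at 1.29, 1.07 and 5.48 in Normal, and C3 at 3.54, 2.41 and 3.43 in MI and 1.76, 1.45 and 5.99 in Normal. Relative to Dcn, both genes were above Normal Ms1535 and Ms1537 in every MI library, whereas Normal Ms1608 was above every MI library for C3 and above MI Ms1537 and Ms1608 for C4b. The part of fibroblast RNA in the difference was not tested.

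The 250 bases before the RefSeq start of C3 are shown because C3 was one of the genes whose groups did not overlap either as deposited or after median-ratio scaling, beside those of C1qb and Cfp, whose values were ordered differently over the libraries. The windows are on the minus strand of GRCm38.p6, at chr17:57228137-57228386 for C3, chr4:136886201-136886450 for C1qb and chrX:20931556-20931805 for Cfp, written 5′ to 3′, and capitals mark motif matches.
C3: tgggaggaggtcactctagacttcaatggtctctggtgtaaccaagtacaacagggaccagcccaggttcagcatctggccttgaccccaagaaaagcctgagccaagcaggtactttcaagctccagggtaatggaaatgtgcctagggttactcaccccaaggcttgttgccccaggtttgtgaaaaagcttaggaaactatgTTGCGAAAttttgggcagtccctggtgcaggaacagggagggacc
C1qb: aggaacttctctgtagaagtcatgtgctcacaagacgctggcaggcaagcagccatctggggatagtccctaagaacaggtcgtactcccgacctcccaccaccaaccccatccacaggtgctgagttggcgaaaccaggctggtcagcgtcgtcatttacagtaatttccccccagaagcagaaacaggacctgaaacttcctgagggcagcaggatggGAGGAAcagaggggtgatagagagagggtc
Cfp: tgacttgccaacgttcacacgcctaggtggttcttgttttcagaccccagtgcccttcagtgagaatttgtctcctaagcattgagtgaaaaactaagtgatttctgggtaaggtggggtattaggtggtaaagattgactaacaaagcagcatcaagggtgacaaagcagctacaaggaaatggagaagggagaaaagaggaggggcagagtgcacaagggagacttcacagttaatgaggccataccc
The motifs searched on both strands were those of C/EBP (TTGCNNAA), PU.1 (GAGGAA), AP-1 (TGANTCA), the interferon response element, the STAT site (TTCNNNGAA) and the TATA box (TATAAA). A match is a description, not a bound site or a cause, and none of the 3 windows held more than 1 match. In C3 the match was that of C/EBP, factors of inflammatory and acute phase genes, 45 bases before the start, and 9.56% of all 32851 windows of this length hold 1. In C1qb it was that of PU.1, a factor of myeloid cells, 30 bases before the start, and 23.3% of windows hold 1. In Cfp none of the 6 motifs was in the window. RefSeq gave a window for 6 of the 9 genes. The remaining windows held a PU.1 match in C1qc, an AP-1 and a TATA match in C3ar1 and none in C5ar1, and the AP-1 and TATA motifs were in 6.75% and 12.4% of all windows.

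The C1q genes lie side by side on the minus strand of chromosome 4 within 18675 bases, C1qb at 136880129 to 136886187, C1qc at 136889804 to 136893065 and C1qa at 136895917 to 136898803 (GRCm38). Their products join in equal numbers in the C1q protein. All 3 genes had their highest value in MI Ms1608. Summed over the chains, C1q was at 16.0, 26.3 and 91.5 FPKM (MI) against 6.74, 13.0 and 14.1 FPKM (Normal), so that the groups did not overlap but MI Ms1535 lay close to Normal Ms1608.

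C1qa had 4.64, 4.31 and 38.2 FPKM (MI) against 3.27, 3.25 and 2.28 FPKM (Normal). The separation of the groups was narrow, since the lowest MI value was 1.32 times the highest Normal value. The C1qa log2 difference came to 1.43 (SE 0.87, limma adjusted p = 0.403), 1.31 without Normal Ms1608 (SE 0.84, limma adjusted p = 0.288) and 0.49 without MI Ms1608 (SE 0.73, limma adjusted p = 0.749). MI Ms1608 therefore set most of its size. After median-ratio scaling the C1qa groups overlapped, and the log2 difference was 0.57 (SE 0.94, limma adjusted p = 0.929).

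C1qb was at 3.33, 8.13 and 25.0 FPKM (MI) against 1.56, 4.39 and 11.2 FPKM (Normal). Normal Ms1608 exceeded MI Ms1535 and Ms1537, so the groups overlapped. The log2 difference was 0.87 (SE 0.89, limma adjusted p = 0.627), 1.44 without Normal Ms1608 (SE 0.76, limma adjusted p = 0.213), 0.18 without MI Ms1608 and -0.03 after median-ratio scaling.

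C1qc was at 8.04, 13.9 and 28.2 FPKM (MI) against 1.90, 5.38 and 0.620 FPKM (Normal). Every MI library lay above every Normal library, by 1.49 times at the closest. Its log2 difference of 2.35 (SE 0.79, limma adjusted p = 0.252) was 1.88 without Normal Ms1608 (SE 0.63, limma adjusted p = 0.0921) and 1.90 without MI Ms1608 (SE 0.88, limma adjusted p = 0.380). After median-ratio scaling the C1qc groups overlapped, and the log2 difference was 1.47 (SE 0.85, limma adjusted p = 0.905).

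Within a library, the chains did not stay in a fixed proportion. C1qc made up 50.2% and 52.8% of the summed C1q FPKM in MI Ms1535 and Ms1537, and 30.9% in MI Ms1608, where C1qa was the largest at 41.7%. In Normal Ms1535 C1qa was the largest at 48.6%, and in Normal Ms1537 C1qc was at 41.3%. Normal Ms1608 was unlike the other 5, with 79.5% from C1qb and 4.38% from C1qc. C1qb was at 20.8% to 33.7% in those 5 libraries. None of the 100-base stretches of C1qa or C1qb occurs in another chain, and the C1qc value of Normal Ms1608 rests on about 23.8 implied fragments.

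**Figure D2:**
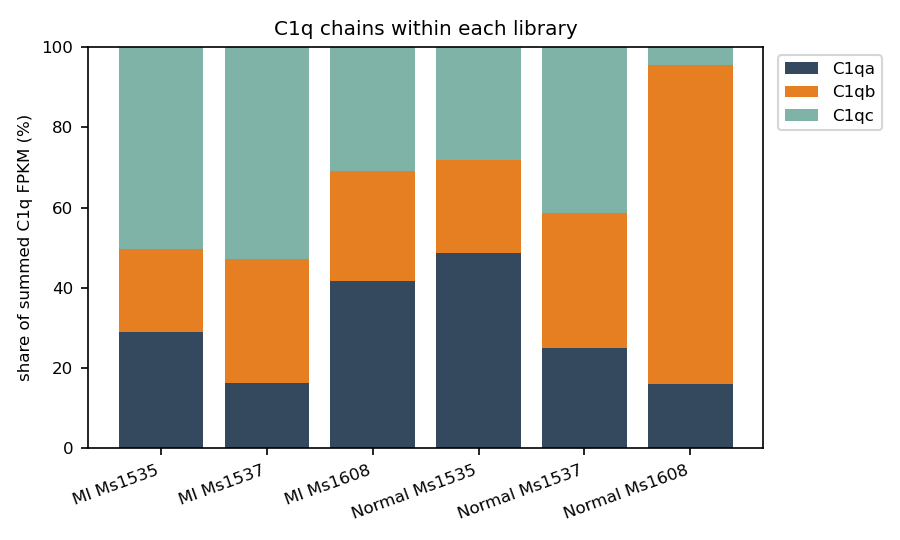
Share of the summed C1q FPKM taken by each chain, in percent, with 1 stacked bar per library. C1qb takes 79.5% in Normal Ms1608 and 20.8% to 33.7% in the other 5 libraries.

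Macrophage markers are set beside the C1q genes. Of 18 markers other than complement genes, taken without the filter on low values, 9 were higher in every MI library than in any Normal library. The 25% over all tested genes is not a like share, since Adgre1, 1 of the 9, did not meet that filter. The summed level of the list was 305 to 730.3 FPKM in MI and 140 to 328 FPKM in Normal, with Folr2 the only marker listed at 0 in any library. Adgre1, the gene of the F4/80 antigen used in the gate, was at 0.282, 1.70 and 7.21 FPKM (MI) against 0.128, 0.247 and 0.00904 FPKM (Normal). Csf1r, the macrophage growth factor receptor, had 6.81, 8.62 and 22.7 FPKM (MI) against 1.87, 1.04 and 2.77 FPKM (Normal). Cd68, a lysosomal protein of macrophages, was at 4.17, 3.61 and 14.2 FPKM (MI) against 2.82, 0.598 and 6.27 FPKM (Normal), so its groups overlapped. All 3 genes and the summed C1q level were highest in MI Ms1608, whereas the summed list was highest in MI Ms1537, at 730.3 FPKM against 477 FPKM in MI Ms1608. A sum follows its most abundant genes. The median of the 18 markers on log2(FPKM + 1) was 2.33, 2.35 and 2.93 (MI) against 1.02, 0.718 and 0.375 (Normal). That median was highest in MI Ms1608 and did not overlap between the groups. Per FPKM of Csf1r, C1q stood at 2.35, 3.05 and 4.03 in MI and at 3.604, 12.5 and 5.11 in Normal. Per FPKM of Cd68 it stood at 3.84, 7.30 and 6.44 in MI and at 2.39, 21.8 and 2.26 in Normal. Both ratios overlapped between the groups and were highest in Normal Ms1537, and against Cd68 every MI library lay above Normal Ms1535 and Ms1608. The part of macrophage RNA in the difference was not tested.

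Cfp encodes properdin, the stabiliser of the alternative pathway enzyme, which myeloid cells and T cells release. It had 26.0, 9.52 and 10.6 FPKM (MI) against 0.284, 1.61 and 44.9 FPKM (Normal). Normal Ms1608 was the highest library and Normal Ms1535 the lowest, a 158-fold range within 1 group, while the other Normal libraries lay below all MI libraries. The log2 difference was 1.47 with all libraries (SE 1.21, limma adjusted p = 0.530) and 3.02 without Normal Ms1608 (SE 0.61, limma adjusted p = 0.0309), where Cfp passed the threshold. After median-ratio scaling of all 6 libraries the Cfp log2 difference was 0.59 (SE 1.31, limma adjusted p = 0.943). Together with C4b, Cfp made 2 of the 8 complement genes past the threshold without Normal Ms1608, against 5.86% of all tested genes. Of the 578 genes past the threshold there, 568 were higher in MI and 10 lower, in deposited values not scaled further. There, an unadjusted p under 0.05 with a higher level in MI was found in 6 of the 8, against 31.5%, but C5ar1, 1 of the 6, then met the filter on low values only through the MI libraries. Without both libraries numbered Ms1608, 4 of the 7 complement genes still tested (C3, C4b, Cfb and Cfp) passed the threshold, against 16.3% of tested genes, and 5 of the 7 had such an unadjusted p, against 40.3%.

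Among the receptors, C5ar1, which binds C5a on neutrophils, monocytes and macrophages, was at 3.35, 1.63 and 6.04 FPKM (MI) against 0.350, 0.845 and 3.54 FPKM (Normal). Normal Ms1608 lay above MI Ms1535 and Ms1537. The log2 difference was 0.94 (SE 0.65, limma adjusted p = 0.454), and 1.45 without Normal Ms1608 (SE 0.51, limma adjusted p = 0.102).

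C3ar1, the receptor of C3a, was the lowest of the 9 genes in 5 libraries. It had 0.0598, 2.15 and 2.11 FPKM (MI) against 0.1004, 0.818 and 0.148 FPKM (Normal). MI Ms1535 was the lowest library of all, below every Normal library, at about 11.8 implied fragments. Fitted without the filter on low values, the log2 difference was 0.73 (SE 0.59, limma adjusted p = 0.649).

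Leukocyte markers are given beside Cfp and C5ar1. The 12 monocyte markers summed to 1180 to 2668 FPKM in MI and to 196, 296 and 4787 FPKM for the Normal libraries, with none listed at 0. Without the filter on low values, 4 of the 12 were higher in every MI library than in any Normal library. That share is near the 25% of all tested genes, which met the filter. Of the 8 pan-leukocyte markers, 0 were higher in every MI library than in any Normal library. Ptprc, the leukocyte antigen CD45, was at 68.7, 77.9 and 75.9 FPKM (MI) against 3.13, 4.72 and 174 FPKM (Normal). Per 100 FPKM of Ptprc, Cfp stood at 37.8, 12.2 and 13.9 in MI and at 9.08, 34.1 and 25.8 in Normal, so these ratios overlapped. C5ar1 stood at 4.89, 2.09 and 7.96 per 100 FPKM of Ptprc in MI and at 11.2, 17.9 and 2.04 in Normal. In Normal Ms1535 and Ms1537 that ratio was above every MI library. The part of leukocyte RNA in these values was not tested.

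**Figure D3:**
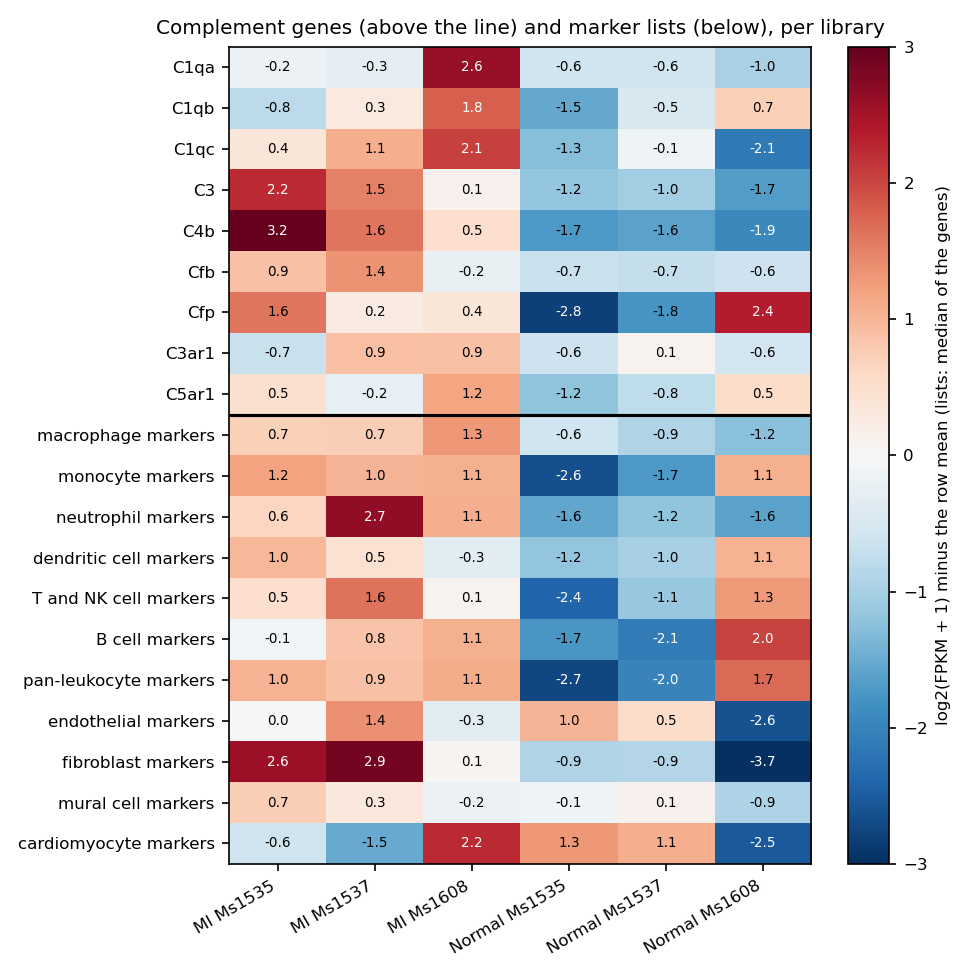
Each cell gives log2(FPKM + 1) in 1 library minus the mean of its row over the 6 libraries, for the 9 complement genes above the line and for the median gene of each cell type marker list below it. C3 and C4b are low in all Normal libraries, the C1q genes are highest in MI Ms1608, and Cfp is highest in Normal Ms1608.

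**Figure D4:**
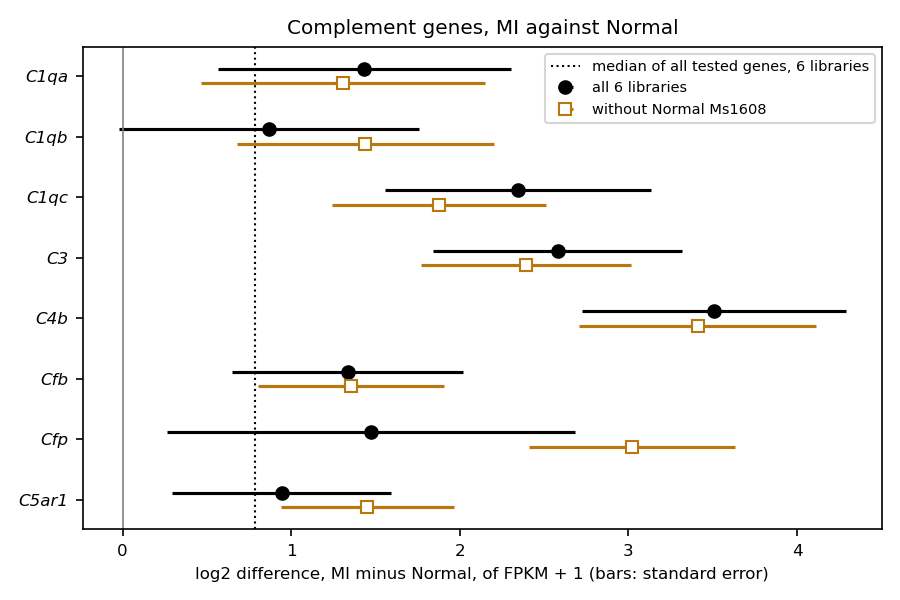
Log2 difference between MI and Normal of FPKM + 1 for the 8 tested complement genes, with bars of 1 standard error, for all 6 libraries (filled) and without Normal Ms1608 (open). The dotted line is the median of all tested genes, 0.78, and Cfp moves from 1.47 to 3.02 when Normal Ms1608 is left out.

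The makeup of complement expression also differed between libraries. Summed levels of the 9 genes were 418, 232 and 186 FPKM (MI) against 35.4, 45.3 and 86.7 FPKM (Normal). C3, C4b and Cfb made up 89.1% and 82.9% of this sum in MI Ms1535 and Ms1537 and 40.8% in MI Ms1608, where C1q had the larger share. In Normal they made up 78.9%, 64.0% and 27.7%, the last in Normal Ms1608, where Cfp was the highest gene.

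For each tested complement gene, the genes with the most similar profile were taken as those with the smallest root-mean-square difference of centred log2(FPKM + 1) over the 6 libraries, which share 1 table and the shift between groups. For C3 they were Cyp1b1 (0.21 log2 units) and Mcoln1 (0.21), and for C4b Maf (0.24) and Hk2 (0.42). Cfb was nearest to Suco (0.087) and Fam172a (0.087). C1qa was nearest to Trem1 (0.36) and F13a1 (0.38), C1qb to Sirpb1b (0.35) and Clec4a2 (0.35), and C1qc to Cln3 (0.42) and Klrb1c (0.44). Cfp was nearest to Tnfaip3 (0.31) and Snx5 (0.31). C5ar1 was nearest to Tlr1 (0.070), a receptor of bacterial lipopeptides, and to Sik1 (0.22). Adding 1 FPKM flattens changes at low levels, so a similar profile here is not a similar fold change. Cyp1b1, Maf and Hk2 were under 1 FPKM in every Normal library, unlike C3 and C4b. No test was attached to these likenesses.

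Of 48 other genes of the complement system, 18 were tested and 3 (Cfd, Mbl1 and Fcnb) were listed at 0 in every library. None of the 18 passed the threshold with all libraries (limma adjusted p of 0.245 to 0.820). C1rl and Itgax met the filter on low values only through the MI libraries, which fixed their separation, and are left out of the next counts. Of the remaining 16, 4 had an unadjusted p under 0.05 (limma) with a higher level in MI, beside 16.1% of all tested genes, and 3 were completely separated. The 16.1% is not a like share, since it includes the 443 genes that met the filter only through the MI libraries. Over all tested genes that likewise did not meet the filter through the MI libraries alone, 21.6% were separated, so 3 of 16 does not set these genes apart.

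**Figure D5:**
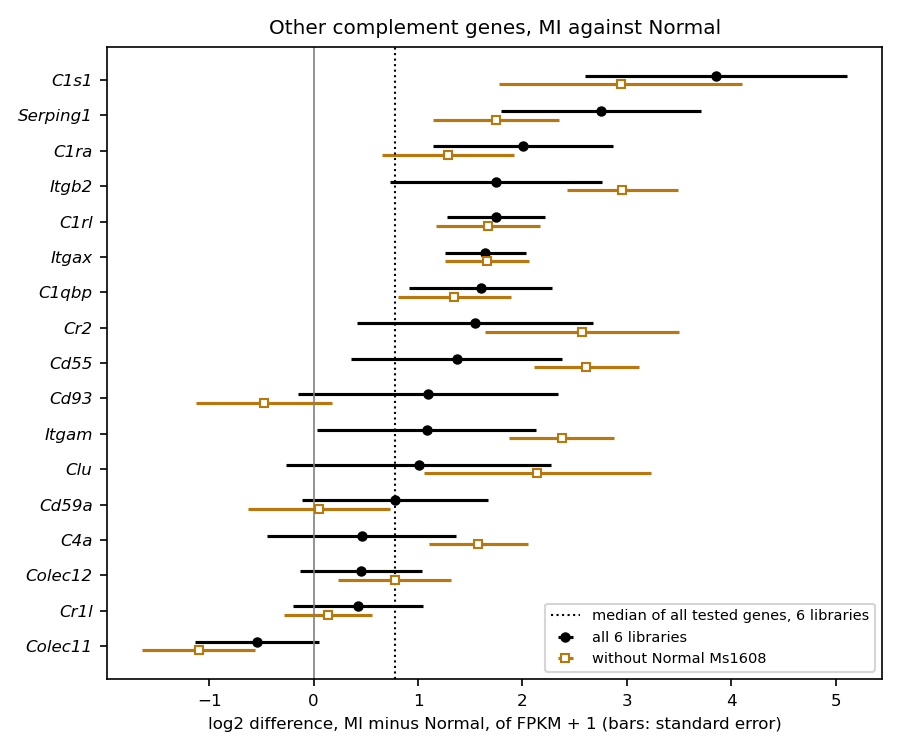
Log2 difference between MI and Normal of FPKM + 1 for 17 of the 18 other tested complement genes, with bars of 1 standard error, for all 6 libraries (filled) and without Normal Ms1608 (open), and with the median of all tested genes dotted. With all 6 libraries C1s1 has the largest difference, 3.85, with a standard error of 1.25.

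C1s1 and C1ra encode the proteases that C1q carries. C1s1 was at 715, 282 and 24.2 FPKM (MI) against 13.4, 33.9 and 2.36 FPKM (Normal), with overlap between MI Ms1608 and Normal Ms1537. C1ra was at 73.0, 31.2 and 15.7 FPKM (MI) against 14.8, 11.4 and 2.16 FPKM (Normal), without overlap but with a narrow gap. Both had the order of MI libraries seen in C3 and C4b. Their log2 differences were 3.85 (SE 1.25, limma adjusted p = 0.247) and 2.003 (SE 0.86, limma adjusted p = 0.298). Without Normal Ms1608 they were 2.94 and 1.29 (limma adjusted p of 0.126 and 0.186), and after median-ratio scaling 2.82 and 0.99. C1rl, a relative of C1ra, was at 5.48, 1.32 and 3.04 FPKM (MI) against 0.0731, 0.424 and 0.0564 FPKM (Normal).

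Among the inhibitors, Serping1, which blocks these proteases, was at 53.1, 105.5 and 25.7 FPKM (MI) against 17.96, 12.4 and 0.975 FPKM (Normal). Every MI value lay above every Normal value, and the log2 difference was 2.75 (SE 0.96, limma adjusted p = 0.252). It was 1.75 without Normal Ms1608 (limma adjusted p = 0.0983) and 1.76 after median-ratio scaling. Cd55, which speeds the decay of the C3-cleaving enzymes on cell surfaces, was at 69.1, 142 and 59.9 FPKM (MI) against 11.6, 14.3 and 183 FPKM (Normal), where Normal Ms1608 was the highest library. The log2 difference of Cd55 was 1.37 (limma adjusted p = 0.489).

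The integrin genes Itgam, Itgax and Itgb2 encode subunits of the leukocyte receptors for cleaved C3. Itgax was at 3.92, 1.69 and 2.47 FPKM (MI) against 0.0893, 0.178 and 0.172 FPKM (Normal), and its separation was fixed by the filter on low values. Itgb2 was at 52.8, 26.4 and 44.9 FPKM (MI) against 2.65, 6.55 and 64.1 FPKM (Normal), and Itgam at 13.7, 22.9 and 24.1 FPKM (MI) against 3.77, 2.32 and 57.8 FPKM (Normal). Both were highest in Normal Ms1608, the library in which Cfp was also highest. With all libraries the log2 differences of Itgb2 and Itgam were 1.75 and 1.08 (limma adjusted p of 0.392 and 0.601). After median-ratio scaling they were 0.73 and 0.10. Without Normal Ms1608, 15 of the 18 met the filter not through the MI libraries alone, and 3 of these 15 passed the threshold, Itgb2 (log2 difference 2.96, limma adjusted p = 0.0240), Cd55 (2.61, 0.0267) and Itgam (2.38, 0.0344). Over all genes tested there 5.86% passed. That is not a like share, since it includes 863 genes that met the filter only through the MI libraries. Itgax also passed (1.66, 0.0483), but is not counted.

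The remaining genes with large differences were C1qbp, a mitochondrial protein that can bind C1q, with a log2 difference of 1.60, Cr2, a receptor of B cells for C3 fragments, with 1.55, and Cd93, a lectin of endothelial and myeloid cells, with 1.10 (limma adjusted p of 0.294, 0.484 and 0.663). Without Normal Ms1608 they were 1.35, 2.57 and -0.48, and after median-ratio scaling 0.52, 0.81 and 0.13. Hc, which encodes C5, was under the filter and is named after its values were seen. It was at 49.4 FPKM in Normal Ms1608 and at 0.00459 to 0.295 FPKM in the other 5 libraries.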

How the data were processed

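The authors deposited FPKM values for 45038 genes in 6 libraries of amplified RNA from sorted cells. Per the submitters' processing notes, STAR 2.4.2a, Cufflinks 2.2.1 and GRCm38 were used. The annotation release, strand setting and handling of reads with several matches are not given in the sources used here. Groups came from the sample labels.

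A gene was tested where 3 or more libraries reached 1 FPKM. MI and Normal were compared on log2(FPKM + 1), which understates the change of low genes, with limma 3.58.1 in R 4.3.3, using a mean-variance trend. Tests were two-sided with Benjamini-Hochberg adjustment over all tested genes and a threshold of 0.05. When libraries were left out, the filter was applied again to those remaining. The fit was also run on simulated data with less spread than observed, large effects, no general shift between groups and no outlying library. That run does not show how the fit performs on these libraries. Values within 0.1 of whole multiples of 1 fragment made up at least 92.9% of low values, which gave the implied depths. Only totals above the depth in the labels were searched, and whole multiples of a true total also fall on whole steps. This share therefore does not fix the implied depths. The labels give a depth of about 10 "megabyte reads" per sample, which was not reconciled with these. Fragment counts cover counting error only.

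Named genes were the 9 complement genes, the 12 other tested complement genes with the largest absolute differences and any past the threshold (1 of these is not reported here), the 2 most similar genes per tested complement gene (with predicted genes, pseudogenes and small RNAs left out), and Ptprc, Adgre1, Cd68, Csf1r, Kdr, Cdh5, Dcn and Pdgfra as context. The members and lists were chosen with earlier results of these data known. Alternatives covered the pseudocount, filter, scaling, variance trend, block and libraries left out. Positions are from GRCm38, and 98.6% of gene IDs were in GENCODE. Promoter windows are from RefSeq.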

Additional observations from a re-analysis of the deposited data

How the results depend on the processing

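With all libraries 1 gene and 0 complement genes passed the threshold. Leaving out 1 library at a time gave 0 to 578 genes and 0 to 2 complement genes. Leaving out both libraries numbered Ms1608, an alternative chosen after seeing the data, gave 1415 genes (16.3%) and 4 of 7 complement genes, C3, C4b, Cfb and Cfp (limma adjusted p of 0.0188, 0.0188, 0.0357 and 0.0265). Of the 1415 genes, 1373 were higher in MI and 42 lower, in deposited values not scaled further. The cause was not tested. Log2 differences that reversed were C1qb, at -0.030 after median-ratio scaling, and Cd93, at -0.013 after quantile scaling and -0.48 without Normal Ms1608 (-0.48 to 1.90 when 1 library at a time was left out). Of 291 values of named complement genes under 15 alternatives, 272 kept direction and side of the threshold, 16 passed it only under the alternative and 3 reversed. All 16 came from the fits without Normal Ms1608, alone or together with MI Ms1608. No named complement gene passed with all libraries, so a value kept its side by not passing, and 272 is no measure of robustness. C1qb was 0.31 and Cfp 0.44 without Normal Ms1535.

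With the sample number as a replicate block, 1 gene and 0 complement genes passed, and C4b was at 3.51 (SE 0.85, limma adjusted p = 0.198). Libraries with the same number had deviations that correlated at -0.05, 0.098 and 0.087, and not every library correlated best with its own number. Deviations from a mean of 3 libraries are tied to each other, so these correlations cannot show or exclude pairing. The main fit did not use the numbers. The fewest implied fragments, 11.8 to 35.4, were behind C3ar1 in MI Ms1535, Normal Ms1535 and Normal Ms1608, C1qc in Normal Ms1608, and Cfp and C5ar1 in Normal Ms1535. If the implied depths hold, depth limits these values.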

Other observations

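In the separation counts that follow, markers were taken without the filter on low values. Among all tested genes, which met it, 25% were separated. Among the neutrophil markers, 3 of 13 were higher in each MI library than in any Normal library. The neutrophil list summed to 4603 to 12093 FPKM in MI and 2094 to 13540 FPKM in Normal, with Elane listed at 0 in at least 1 library. The 16 T and NK cell markers summed to 698 to 1476 FPKM in MI and 107 to 1235 FPKM in Normal, with 5 of the 16 separated and Prf1 listed at 0 in at least 1 library. The 8 B cell markers summed to 590 to 938 FPKM in MI and 54.0 to 1405 FPKM in Normal, and none was separated. For dendritic cells, 8 of 9 markers were in the table, summing to 65.6 to 110 FPKM in MI and 30.9 to 336 FPKM in Normal, with none separated. Mural cell markers summed to 25.8 to 33.5 FPKM in MI and 1.23 to 31.7 FPKM in Normal, with 1 of 10 separated and Myh11 and Cnn1 listed at 0 in at least 1 library. Cardiomyocyte markers summed to 149 to 1046 FPKM in MI and 9.11 to 829 FPKM in Normal, with 0 of 10 separated and Nppa listed at 0 in at least 1 library.

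Of the endothelial genes, Kdr was at 30.6, 63.1 and 11.9 FPKM (MI) against 73.9, 44.6 and 0.486 FPKM (Normal) in the order Ms1535, Ms1537, Ms1608. Cdh5 was at 27.6, 78.8 and 6.496 FPKM (MI) against 40.3, 24.7 and 1.20 FPKM (Normal). Both overlapped between the groups and were lowest in Normal Ms1608.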
